A study of Mus musculus with 9 samples.

Results

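The Frizzled receptors and Wnt regulators described here are 10 genes of central mouse cornea, namely the receptors Fzd1, Fzd2, Fzd6 and Fzd7, the co-receptor Lrp6, the secreted factors Sfrp1, Dkk3 and Wif1, the transducer Ctnnb1 and the feedback gene Axin2. They were found on the array as every probe set, a group of short probes for 1 transcript, whose only gene symbol in the platform annotation was one of these names. This gave 25 probe sets for the 10 genes, out of 18193 genes with a probe set of their own. The brightest probe set on average stood for a gene, and its others served as a check. The arrays held total RNA from 3 groups of inbred male mice aged 4 months, with 3 mice each of SJL/J (SJL, labelled as having a thick cornea), C57BLKS/J (KS, labelled as having a thin cornea) and C57Bl/6J (B6, with no thickness in its label). The 2 central punches of a mouse, each 2 mm wide, were combined, so 1 array stood for 1 mouse. The mice shared diet and light cycle, and no treatment is named. Thickness cannot be told apart from whatever else sets these strains apart, and the 3 mice replicate the strain.

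Wnt proteins are secreted lipid-modified ligands that bind Frizzled receptors together with the co-receptors Lrp5 or Lrp6. In the canonical branch this stops the destruction of beta-catenin, the product of Ctnnb1, which then acts with Tcf and Lef factors on genes such as Axin2. Secreted proteins of the Sfrp, Dkk and Wif families bind the ligands or the receptors, and in the eye Wnt signalling takes part in the growth of the ciliary margin, the lens and the ocular surface, where its restraint is part of corneal epithelial identity.

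The punches held epithelium, stroma and endothelium together. Krt12, the keratin of corneal epithelium, was at 26604 ± 628 in SJL, 26808 ± 388 in KS and 28462 ± 777 in B6 (intensity, SD, n = 3), and Kera, the stromal proteoglycan keratocan, was at 11789 ± 447, 11724 ± 516 and 12626 ± 527 in SJL, KS and B6. The summed intensity of 9 listed stromal markers was 48786 to 50408 on the SJL arrays, 55925 to 61373 on the KS arrays and 52898 to 58388 on the B6 arrays, so the SJL arrays lay below both others. The summed intensity of 8 markers of conjunctiva and limbus was 6704 to 8405 in SJL, 21610 to 24097 in KS and 24208 to 29691 in B6, again lower on every SJL array. Krt13 and Krt15 made up most of that sum in KS and B6, and Krt19 of the same list went the other way, at 3322 ± 382 in SJL, 2430 ± 465 in KS and 2083 ± 212 in B6 (SJL versus B6 0.67, adjusted p = 0.0192). The 7 endothelial markers on the array summed to 18337 to 20900.5 in SJL, 22446 to 25901 in KS and 21063 to 25367 in B6, and 5 vessel and blood markers to 70.6 to 91.4 in SJL, 109 to 134 in KS and 122 to 226 in B6, so both sums were lowest on the SJL arrays. Single genes did not all follow these sums. In the stromal list, Dcn was at 14001, 18170 and 15473 in SJL, KS and B6, Aldh1a1 at 5953, 7850 and 8360, and Lum at 5010, 4880 and 4684. In the endothelial list, Atp1b1 was at 2668, 5625 and 4795, and Col8a2 at 3500, 3412 and 3574. Tjp1, at 7910, 7970 and 8663, stood on both the epithelial and the endothelial list. In such mixed tissue, fewer cells of a type and less RNA per cell cannot be told apart. All 6 muscle markers and 8 of 9 lens markers stayed below an intensity of 16 on all arrays. So did 4 of the 5 vessel and blood markers, whose sum thus rested on 1 marker above that level. The summed level of 9 retina markers was 5340 on KS replicate 3 and 45.7 to 55.5 on the other 8 arrays. On that array the photoreceptor genes were at 98.9 (Abca4), 114 (Crx), 222 (Rom1), 261 (Nrl), 456 (Rcvrn), 720 (Pde6g), 1326 (Sag) and 2108 (Gnat1), and the carbonic anhydrase Car2 was at 69.0, each over 4-fold above every other array. Called differences of the 10 genes that use KS arrays are therefore given with and without KS replicate 3.

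Differences were tested on log2(intensity + 10) with limma over the 22519 probe sets that lay at or above the median level, and a difference was called at a Benjamini-Hochberg adjusted p under 0.05. Of the 10 genes, 9 were tested and Wif1 was too dim. By the moderated F-test of limma, 3 of the 9 differed among the strains (33.3%), namely Fzd1, Fzd2 and Dkk3, beside 19.4% of all genes tested. In SJL versus KS 2 of the 9 were lower and 0 higher (22.2% called), beside 14.8% of all genes (6.82% higher and 8.01% lower), and 3 had an unadjusted p under 0.05 (2 in KS versus B6, 3 in SJL versus B6). In KS versus B6 1 was higher and 0 lower (11.1%), beside 6.25% of all genes (3.39% higher and 2.87% lower). In SJL versus B6 1 was higher and 1 lower (22.2%), beside 16% of all genes (8.38% higher and 7.63% lower). With so few genes these shares lay near the background of each comparison. The median log2 difference of the 9 genes was -0.09 in SJL versus KS, -0.0046 in KS versus B6 and -0.16 in SJL versus B6, while that of all genes tested was 0.02, 0.01 and 0.02. The 3 comparisons share arrays, each group serving in 2 of them.

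**Figure D1:**
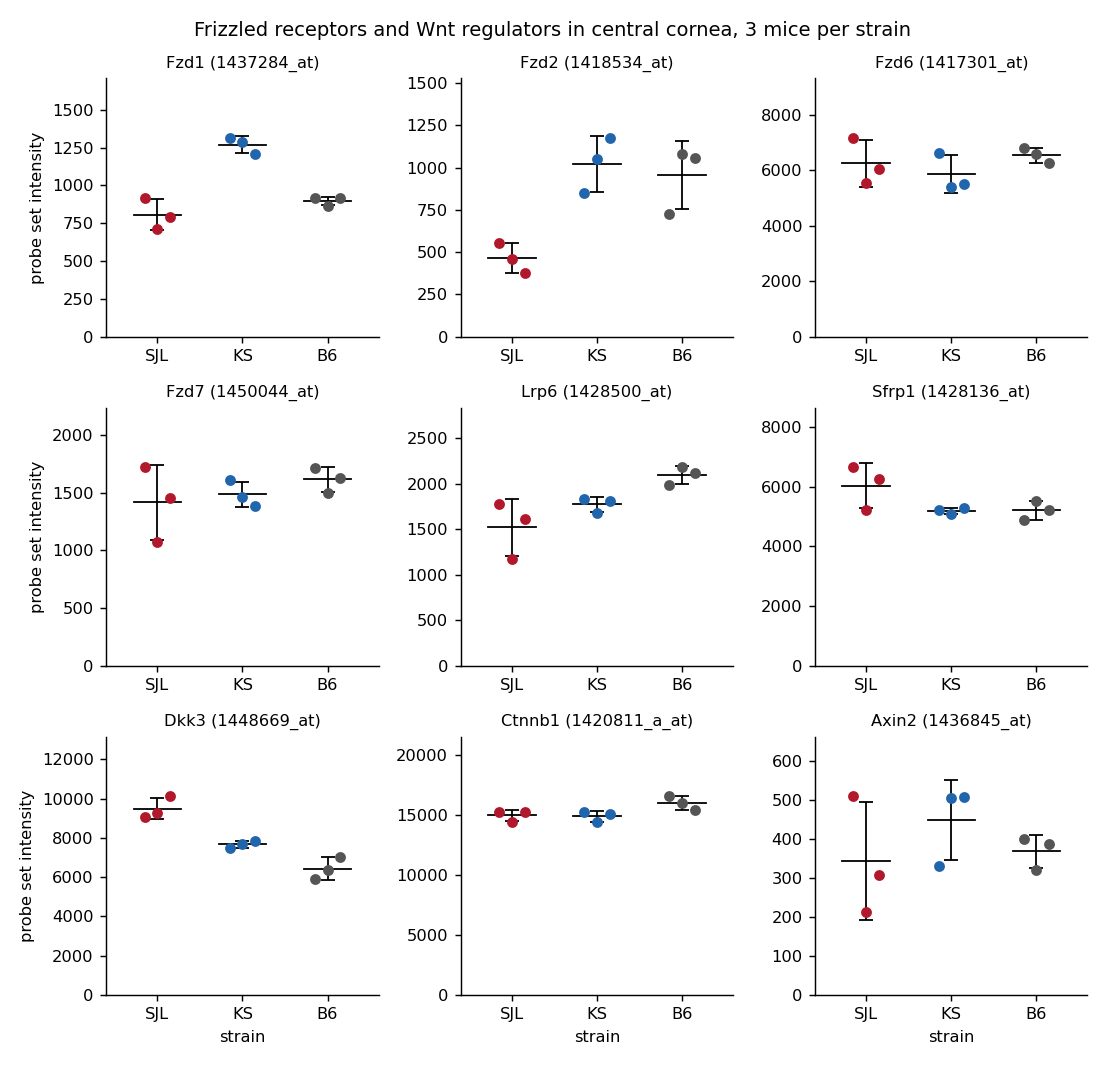
Probe set intensity (vertical axes, linear, starting at 0) of the 9 tested genes in SJL, KS and B6, with 1 point per mouse, a bar at the mean and whiskers of 1 SD. Fzd1 is highest on the 3 KS arrays, Fzd2 lowest on the 3 SJL arrays, and Dkk3 highest in SJL and lowest in B6, while Ctnnb1 stays between 14396 and 16580.

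Among the receptors, Fzd1 was high in KS and Fzd2 was low in SJL. Fzd1, a Frizzled that can relay canonical signals, was at 915, 713 and 790 on the SJL arrays, at 1314, 1286 and 1209 on the KS arrays and at 915, 864 and 915 on the B6 arrays. Every KS array lay above every SJL and B6 array, and SJL and B6 overlapped. Fzd1 had log2 differences of -0.66 ± 0.10 in SJL versus KS (SE, adjusted p = 0.00334), 0.50 ± 0.10 in KS versus B6 (0.0281) and -0.16 ± 0.10 in SJL versus B6 (0.349, 95% interval -0.40 to 0.08). The order of the levels was thus KS above B6 and SJL, whose levels did not differ beyond their spread. The difference of SJL from KS was called whichever array was left out, with -0.69 (adjusted p = 0.0118) without KS replicate 3. The difference of KS from B6 was not called without B6 replicate 1, 2 or 3, KS replicate 1, 2 or 3 or SJL replicate 3 (0.0533 to 0.109), with 0.53 (0.0690) when KS replicate 3 was the one left out. It was also not called with no filter on dim probe sets (0.0508), or with the mean of both Fzd1 probe sets (0.25, 0.0575). The other Fzd1 probe set lay between 4.71 and 4.83 on all arrays, at the lower end of the scale, and gave no check.

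Fzd2, a close relative of Fzd1, was at 555, 459 and 378 in SJL, at 847, 1050 and 1176 in KS and at 725, 1083 and 1059 in B6. The 3 SJL arrays lay below all 6 others, and KS and B6 overlapped. The log2 difference was -1.13 ± 0.20 in SJL versus KS (adjusted p = 0.00666) and -1.02 ± 0.20 in SJL versus B6 (0.0104). KS versus B6 gave 0.11 ± 0.20 (0.823, 95% interval -0.36 to 0.58), which leaves room for differences of either sign. Both calls held whichever array was left out, with adjusted p-values up to 0.0305 against KS and 0.0413 against B6. Without KS replicate 3 the difference of SJL from KS was -1.02 (0.0305). The summed stromal, endothelial and limbal markers were lower in SJL too, though Lum, Col8a2 and Krt19 did not follow these sums. The vessel and blood sum, which rested on 1 marker, was also lower. The part of all these markers in the Fzd2 result was not tested. The other 2 Fzd2 probe sets lay between 3.87 and 9.88 on all arrays, and could not serve as a check. The Fzd2 result thus rests on the brightest probe set alone.

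Fzd6, which is best known for planar polarity of the skin, and Fzd7, a receptor tied to stem cell maintenance in gut epithelium, were called in none of the comparisons. Fzd6 was at 7156, 5527 and 6041 in SJL, at 6629, 5404 and 5504 in KS and at 6792, 6576 and 6245 in B6, with all groups overlapping. Its 95% intervals ran from -0.19 to 0.37 in SJL versus KS, from -0.45 to 0.11 in KS versus B6 and from -0.36 to 0.21 in SJL versus B6 on the log2 scale. A second Fzd6 probe set, at 496 to 1177, was not called either (adjusted p = 0.693, 0.681 and 0.331). Fzd7 was at 1723, 1074 and 1459 in SJL, at 1607, 1463 and 1389 in KS and at 1719, 1496 and 1632 in B6. SJL replicate 2 had the lowest Fzd7 value of the 9 arrays, and the groups overlapped. The Fzd7 intervals ran from -0.47 to 0.28, from -0.49 to 0.25 and from -0.58 to 0.16 in the 3 comparisons.

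The bases before the transcript start were at hand for 5 of the 10 genes in RefSeq (GRCm38.p6, the C57BL/6J genome). They are shown for Fzd1 and Fzd7, the receptors in that table, of which Fzd1 was called between strains and Fzd7 was not. Each run holds the 250 bases before the start, 5′ to 3′ on the strand of the gene, and capitals mark a match to the Tcf/Lef core, searched on both strands first as CTTTGAA, next as CTTTGAT, then as CTTTGTA and last as CTTTGTT.
Fzd1, chr5:4758217-4758466, minus strand: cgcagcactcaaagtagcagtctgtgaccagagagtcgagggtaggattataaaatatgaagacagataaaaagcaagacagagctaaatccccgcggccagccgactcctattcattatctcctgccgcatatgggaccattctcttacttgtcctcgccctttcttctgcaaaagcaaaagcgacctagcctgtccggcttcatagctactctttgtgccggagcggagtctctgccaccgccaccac
Fzd7, chr1:59481897-59482146, plus strand: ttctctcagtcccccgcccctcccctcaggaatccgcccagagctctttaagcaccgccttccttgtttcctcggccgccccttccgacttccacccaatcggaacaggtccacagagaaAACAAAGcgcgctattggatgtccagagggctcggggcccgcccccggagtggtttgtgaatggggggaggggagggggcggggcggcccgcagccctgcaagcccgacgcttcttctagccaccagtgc
Fzd7 held 1 match, AACAAAG, which begins 130 bases before the start and is the last of these searches read on the other strand. Fzd1 held none in this window, nor did Axin2, Wif1 or the 2 starts of Ctnnb1. Of 32851 such windows in the table, 14.8% held at least 1 match. The match is a description of the letters in the C57BL/6J genome, and the sequences of SJL and KS were not analysed here.

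**Figure D2:**
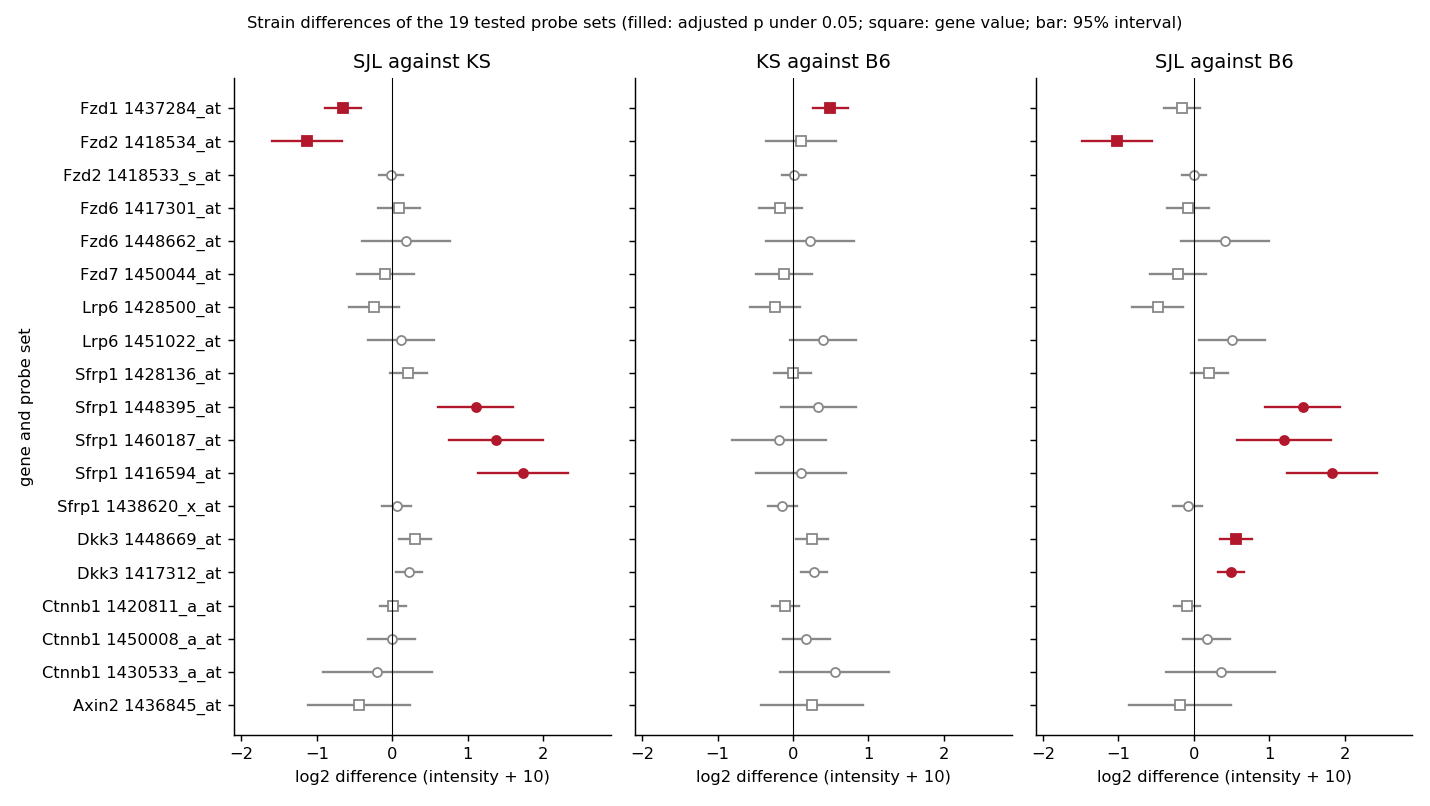
Log2 differences of intensity + 10 (horizontal axes) for the 19 tested probe sets of the 9 genes in SJL versus KS, KS versus B6 and SJL versus B6, with 95% intervals from limma. Filled symbols are called, and squares are the probe sets that stand for a gene. The 3 filled Sfrp1 circles lie at 1.11 to 1.73 in SJL versus KS, beside an Sfrp1 square at 0.21.

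Lrp6, the co-receptor that carries the signal with a Frizzled, was not called in any comparison. It was at 1785, 1175 and 1611 in SJL, at 1830, 1683 and 1817 in KS and at 1985, 2185 and 2120 in B6, and all B6 arrays lay above the other 6. On the log2 scale Lrp6 differed by -0.48 ± 0.15 in SJL versus B6 (adjusted p = 0.0617), -0.24 ± 0.15 in SJL versus KS (0.328) and -0.24 ± 0.15 in KS versus B6 (0.426). Without SJL replicate 1 the difference from B6 was -0.60 (0.0266, called), and without SJL replicate 2 it was -0.30 (0.0695). A second, far dimmer Lrp6 probe set went the other way in SJL versus B6, with 57.3, 58.4 and 77.9 in SJL and 50.6, 46.7 and 31.0 in B6 (0.51 ± 0.19, adjusted p = 0.118).

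Among the secreted factors, Sfrp1 was higher in SJL by 3 of its 5 probe sets, and the brightest of the 5, which stood for the gene, did not pass the test. Sfrp1 is a secreted protein with a Frizzled-like cysteine-rich domain that can bind Wnt ligands. The brightest probe set (1428136_at) was at 6658, 5203 and 6258 in SJL, at 5226, 5078 and 5270 in KS and at 4889, 5533 and 5219 in B6. SJL replicate 2 fell within the range of the other strains and the other SJL arrays above it. The log2 difference was 0.21 ± 0.11 in SJL versus KS (adjusted p = 0.239, 95% interval -0.03 to 0.46), 0.21 ± 0.11 in SJL versus B6 (0.245) and -0.0046 ± 0.11 in KS versus B6 (0.990).

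The next Sfrp1 probe set (1448395_at) was at 4748, 3840 and 5036 in SJL, at 1785, 2318 and 2208 in KS and at 1668, 2218 and 1221 in B6. Its SJL arrays all lay above the other 6, with a log2 difference of 1.11 ± 0.22 against KS (adjusted p = 0.00963) and 1.44 ± 0.22 against B6 (0.00245). The third (1460187_at) was at 1905, 1004 and 1707 in SJL, at 611, 491 and 595 in KS and at 682, 825 and 466 in B6, a difference of 1.38 ± 0.27 against KS (0.0101) and 1.20 ± 0.27 against B6 (0.0190). The fourth (1416594_at) was at 534, 435 and 704 in SJL, at 113, 188 and 182 in KS and at 109, 151 and 188 in B6, a difference of 1.73 ± 0.26 against KS (0.00265) and 1.84 ± 0.26 against B6 (0.00187). In all 3 probe sets the SJL arrays stood apart from both other strains, and KS versus B6 was not called (0.444, 0.772 and 0.876). The fifth (1438620_x_at) was nearly level, at 174 on each SJL array, 154 to 174 in KS and 173 to 194 in B6.

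These 3 probe sets carry 1 and the same sequence accession in the platform annotation, and the brightest carries another, so they are not 3 independent views of the gene. Their calls against KS held whichever array was left out, with 1.15 (adjusted p = 0.0309), 1.42 (0.0329) and 1.83 (0.00903) without KS replicate 3. Against B6 the third was not called without SJL replicate 1 (1.02, 0.0530), SJL replicate 3 (1.10, 0.0711) or B6 replicate 3 (0.97, 0.0545). When all probe sets of a gene were averaged, Sfrp1 was called higher in SJL than in KS (0.90, adjusted p = 0.00190) and than in B6 (0.92, 0.00147).

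**Figure D3:**
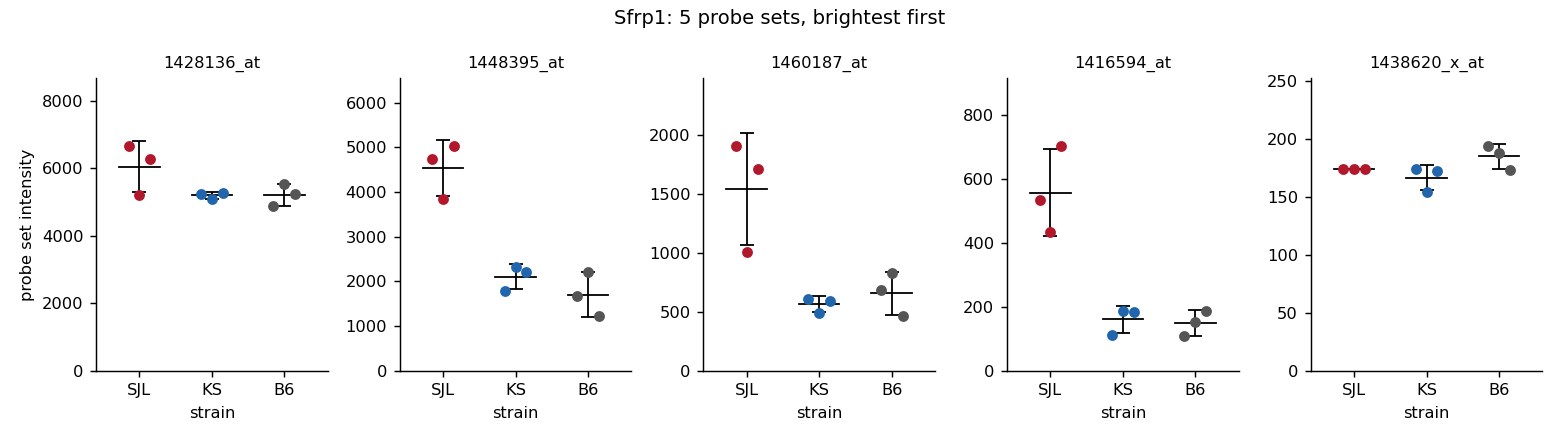
Intensity (vertical axes, linear, starting at 0) of the 5 Sfrp1 probe sets, brightest first, in SJL, KS and B6, with 1 point per mouse, a bar at the mean and whiskers of 1 SD. For 1448395_at, 1460187_at and 1416594_at the 3 SJL arrays lie above all 6 others (for 1448395_at, 3840 to 5036 in SJL against 1221 to 2318 elsewhere), and for the other 2 the strains overlap.

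Dkk3, a secreted member of the Dickkopf family whose action on Wnt signals varies with the cell type, was highest in SJL and lowest in B6. It was at 9072, 9284 and 10120 in SJL, at 7467, 7669 and 7854 in KS and at 5914, 6333 and 7039 in B6, with no overlap between any pair of strains. Groups without overlap were seen for 35.4% of all genes in SJL versus KS, 31.1% in KS versus B6 and 32.7% in SJL versus B6, and for 3, 4 and 4 of the 9 genes. SJL differed from B6 by 0.56 ± 0.09 on the log2 scale (adjusted p = 0.00389), which was called whichever array was left out (up to 0.0194). The differences between neighbours in this order were smaller and not called, 0.31 ± 0.09 in SJL versus KS (0.0587) and 0.26 ± 0.09 in KS versus B6 (0.175). The difference of SJL from KS was called in 6 of 11 other settings and without B6 replicate 3 (0.0408), and it was 0.32 (0.122) without KS replicate 3. The second Dkk3 probe set, which carries the same accession, was at 6911, 6617 and 6889 in SJL, at 5661, 5949 and 5911 in KS and at 4797, 5069 and 4603 in B6. It gave the same order with no overlap, and 0.50 ± 0.08 in SJL versus B6 (0.00286).

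Wif1, a secreted Wnt inhibitor, had 1 probe set, which lay between 5.47 and 7.48 on all 9 arrays. It was at 6.95 ± 0.90 in SJL, 5.67 ± 0.23 in KS and 6.42 ± 0.69 in B6, near the lower end of the scale, so no level could be read from it.

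Ctnnb1, which encodes beta-catenin, the carrier of the canonical signal and a part of cadherin junctions, was among the steadiest genes by its brightest probe set. It was at 15242, 14454 and 15230 in SJL, at 15230, 14396 and 15105 in KS and at 16580, 15976 and 15388 in B6, whose arrays lay just above the other 6. Ctnnb1 had log2 differences of 0.01 ± 0.08 in SJL versus KS (adjusted p = 0.971, 95% interval -0.17 to 0.18), -0.10 ± 0.08 in KS versus B6 (0.522) and -0.09 ± 0.08 in SJL versus B6 (0.467). Its SD within a strain was 0.047 on the log2 scale, smaller than in all but 2.28% of genes tested. The 2 dimmer Ctnnb1 probe sets were not called either, and they spread from 2347 to 3467 and from 274 to 758.

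Axin2, a scaffold that limits beta-catenin and is itself switched on by it, was the most variable of the 9 genes. It was at 509, 213 and 307 in SJL, at 331, 505 and 508 in KS and at 399, 320 and 387 in B6, with all groups overlapping. SJL alone covered the lowest and the highest value of the 9 arrays. The SD within a strain was 0.42 on the log2 scale, larger than in 94.3% of genes, whose median SD was 0.17. The log2 difference was -0.44 ± 0.30 in SJL versus KS (adjusted p = 0.382), with a 95% interval from -1.11 to 0.24 that does not exclude a sizeable difference. It was -0.76 (0.0673) without SJL replicate 1 and -0.15 (0.794) without SJL replicate 2.

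Several members were low together on SJL replicate 2. This array had the lowest value of the 3 SJL arrays in 16 of the 19 tested probe sets of these genes (84.2%), and in 41.3% of all probe sets tested. B6 replicate 3 was the lowest B6 array in 10 of the 19 (52.6%), against 36.4% of all, and KS replicate 1 the lowest KS array in 10 (52.6%), against 38.7% of all. Probe sets of 1 gene are not independent in these counts. The 3′ over 5′ log2 difference of the Gapdh control was 1.55 on B6 replicate 3, 1.16 on SJL replicate 2 and 0.73 to 0.92 on the other 7 arrays, and its part in these low values was not tested. Without SJL replicate 2, Fzd1 gave -0.57 (adjusted p = 0.00728) and Fzd2 -1.13 (0.0212) in SJL versus KS, and Dkk3 gave 0.58 (0.00920) in SJL versus B6.

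**Figure D4:**
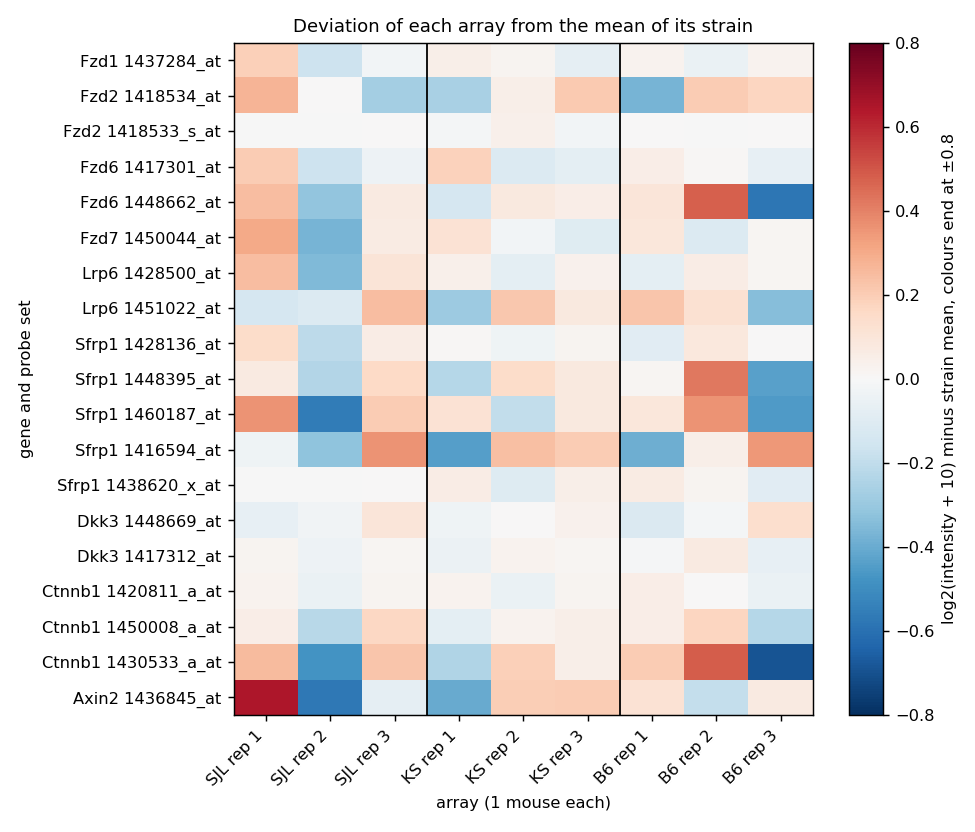
Log2(intensity + 10) of each of the 19 tested probe sets minus the mean of its strain (colour, red above and blue below), for the 9 arrays in columns. The column of SJL replicate 2 is blue in 16 of 19 rows as the lowest of its strain, and the rows of Ctnnb1 1420811_a_at and Dkk3 are pale throughout.

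The rest of the pathway was read from 11 lists of 123 genes, of which 120 were on the array and 76 were tested. In SJL versus KS 4 were higher and 9 lower (17.1% called, beside 14.8% of all genes), with a median log2 difference of -0.02. In KS versus B6 3 were higher and 0 lower (3.95%, beside 6.25%), and in SJL versus B6 2 were higher and 6 lower (10.5%, beside 16%). Among Wnt ligands, 3 of 10 tested were called in SJL versus KS, 1 higher and 2 lower (30%, beside 14.8% of all genes). Wnt2 was at 40.1 ± 3.88 in SJL, 82.0 ± 3.15 in KS and 90.0 ± 8.60 in B6, a log2 difference of -0.88 ± 0.10 against KS (adjusted p = 0.000477) and -0.997 ± 0.097 against B6 (0.000217). Wnt9a was at 3741 ± 381 in SJL and 2341 ± 92.2 in KS (0.67 ± 0.12, 0.00569), and at 3150 ± 390 in B6. Wnt5a, a ligand of non-canonical signalling, was at 1736 ± 221 in SJL, 2543 ± 131 in KS and 2541 ± 146 in B6 (-0.55 ± 0.11 against B6, 0.00924), while its other 3 tested probe sets were not called. With the mean of all its probe sets neither Wnt5a difference was called (-0.47, adjusted p = 0.127, in SJL versus KS and -0.20, 0.511, in SJL versus B6).

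Receptors and polarity genes outside the 9 moved in part. None of the 3 other Frizzled genes tested, Fzd4, Fzd5 and Fzd8, was called by limma in any comparison, and Fzd4 had an unadjusted p under 0.05 in SJL versus B6 (0.57, adjusted p = 0.115). Ptk7, a pseudokinase receptor of planar polarity, was at 26.3 ± 4.32 in SJL, 71.8 ± 6.72 in KS and 80.9 ± 7.77 in B6, a log2 difference of -1.18 ± 0.12 against KS (adjusted p = 0.000289) and -1.33 ± 0.12 against B6 (0.000130). It was the 1 of 6 other receptors tested that was called (16.7%, beside 14.8% of all genes in SJL versus KS and 16% in SJL versus B6). Of 9 planar polarity genes tested, 3 were higher in SJL than in KS (33.3%, beside 6.82% of all genes higher). In SJL versus B6 2 were higher (22.2%, beside 8.38%), and by the brightest probe sets none was lower in either comparison. With 9 genes these shares rest on few calls. Fat4, a giant protocadherin, was at 786 ± 57.0 in SJL and 364 ± 130 in KS, a log2 difference of 1.15 ± 0.22 (0.00821). Intu was at 73.1 ± 22.6 in SJL, 34.3 ± 4.15 in KS and 37.9 ± 4.77 in B6, and Prickle1 was at 1946 ± 470 in SJL and 1007 ± 94.0 in B6 (0.92 ± 0.19, 0.0134). The third gene against KS was Vangl1, whose second probe set was called the other way (-1.33 in SJL versus KS, 0.000534). That probe set was called lower in SJL than in B6 too (-1.21, 0.000847). The Intu calls were lost against KS without KS replicate 1 or 2 or SJL replicate 3 (0.0516 to 0.0689) and against B6 without any B6 replicate, KS replicate 1 or SJL replicate 1 or 3 (0.0514 to 0.0946), and the Prickle1 call without SJL replicate 3 (0.0546). The Vangl1 call was lost without B6 replicate 3, any KS replicate or SJL replicate 2 or 3 (0.0512 to 0.146).

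Among antagonists, secretion and relay genes, no more than 1 gene per list was called in a comparison. In SJL versus KS this was 20%, 50% and 6.67% of the 5, 2 and 15 tested, beside 14.8% of all genes. In KS versus B6 it was 20%, 50% and 0%, beside 6.25%, and in SJL versus B6 0%, 0% and 6.67%, beside 16%. Of 5 other secreted antagonists tested, Dkk2 was lower in SJL than in KS (939 ± 70.8 against 1444 ± 139, -0.61 ± 0.14, adjusted p = 0.0180), and Sfrp2 was higher in KS than in B6 (527 ± 141 against 199 ± 79.1, 1.40 ± 0.30, 0.0311). The Dkk2 call did not survive the removal of KS replicate 2, of KS replicate 3 or of SJL replicate 2 (0.0537 to 0.0715), and the Sfrp2 call without B6 replicate 1 or 2, KS replicate 2 or 3 or SJL replicate 3 (0.0574 to 0.127). Porcn, the enzyme that attaches the lipid to Wnt ligands, was at 1007 ± 43.9 in SJL, 1374 ± 47.4 in KS and 1004 ± 106 in B6, highest in KS as Fzd1 was. It was lower in SJL than in KS (-0.44 ± 0.10, 0.0166), except without KS replicate 2 or 3 (0.0585 and 0.0649). It was higher in KS than in B6 (0.45 ± 0.10, 0.0320), except without B6 replicate 1 or 3, any KS replicate or SJL replicate 3 (0.0575 to 0.118). Of 15 relay genes tested 1 was called, Btrc, which marks beta-catenin for destruction, at 149 ± 52.1 in SJL, 419 ± 29.7 in KS and 363 ± 47.1 in B6 (-1.49 ± 0.24 against KS, 0.00376, and -1.28 ± 0.24 against B6, 0.00742). None of 11 nuclear partners, 3 genes of the R-spondin axis or 6 cadherin partners tested was called by limma. At an unadjusted p under 0.05 there were 2, 1 and 1 of them in SJL versus B6.

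Of 9 target genes tested, 3 were lower in SJL than in KS and 0 higher (33.3%, beside 8.01% of all genes lower). In SJL versus B6 2 were lower and 0 higher (22.2%, beside 7.63% of all genes lower). With 9 genes these shares rest on few calls. Tnfrsf19, a receptor of the TNF family, was at 98.8 ± 22.5 in SJL, 284 ± 51.5 in KS and 180 ± 60.3 in B6 (-1.44 ± 0.26 in SJL versus KS, adjusted p = 0.00656). Ccn4 was at 9.17 ± 1.42 in SJL, 34.9 ± 14.4 in KS and 8.89 ± 1.69 in B6, near the lower end of the scale outside KS. It was lower in SJL than in KS (-1.17 ± 0.23, 0.0101) and higher in KS than in B6 (1.19 ± 0.23, 0.0199), the second call being lost without B6 replicate 1 or 2 or KS replicate 2 or 3 (0.0629 to 0.0873). Ccn1, an early-response matrix protein, was at 3866 ± 517 in SJL, 6393 ± 619 in KS and 6090 ± 130 in B6 (-0.66 ± 0.12 against B6, 0.00580). Cd44 was at 6136 ± 758 in SJL and 8754 ± 1286 in B6 (-0.51 ± 0.14, 0.0374), a call lost without B6 replicate 1 or 2, any KS replicate or SJL replicate 2 or 3 (0.0563 to 0.111). These genes are also under other controls, and Axin2 itself was not called.

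**Figure D5:**
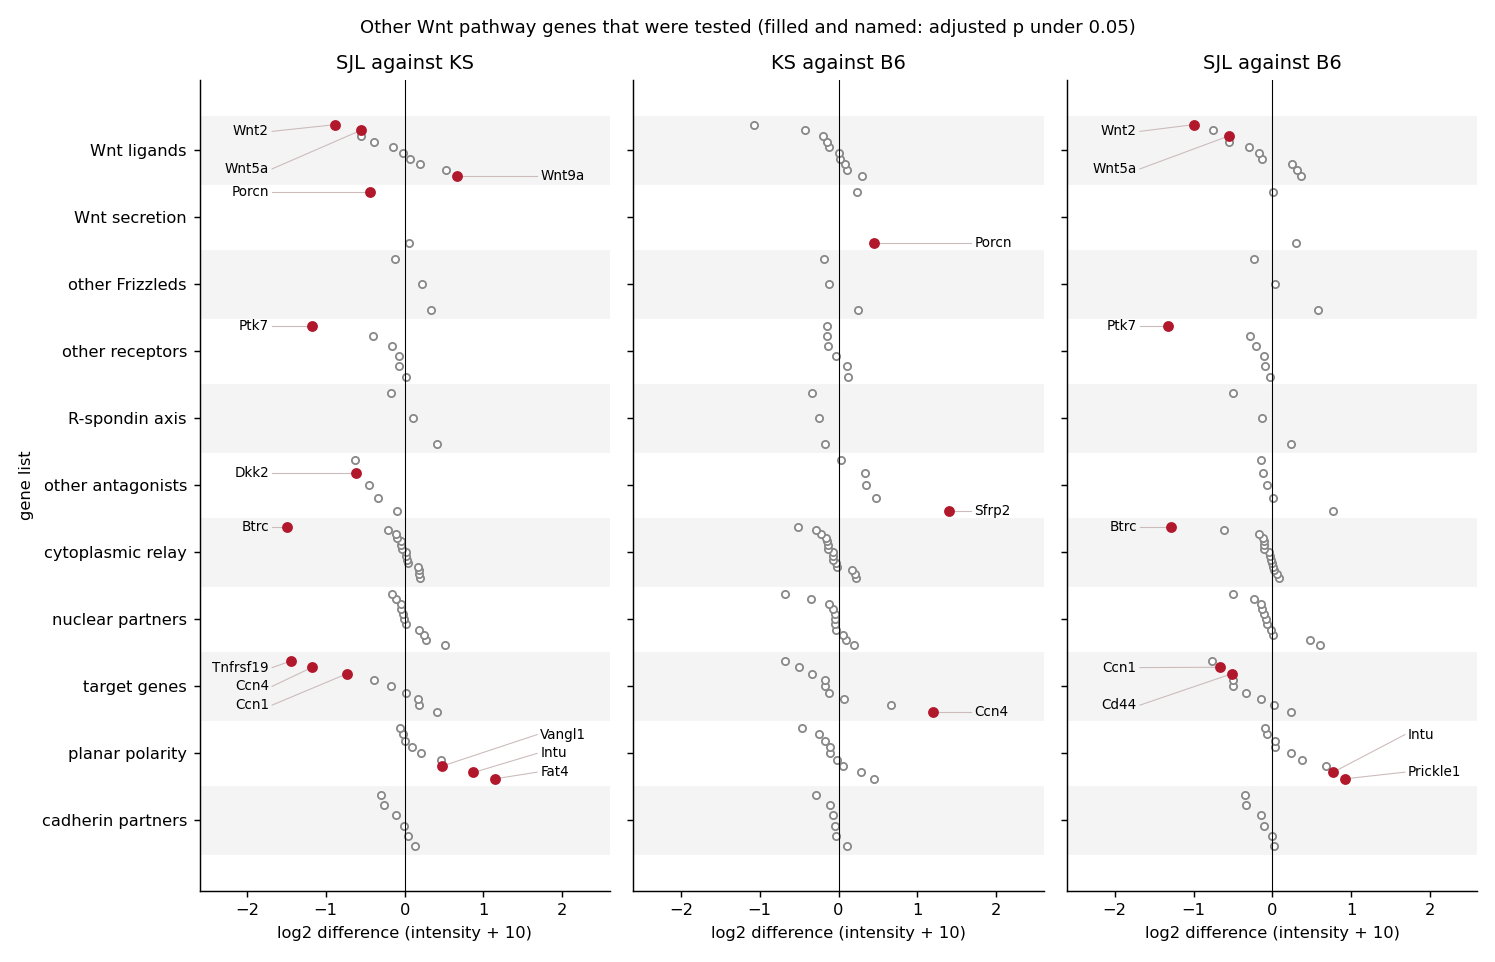
Log2 differences of intensity + 10 (horizontal axes) of the 76 tested Wnt pathway genes outside the 10, by list, in SJL versus KS, KS versus B6 and SJL versus B6, with 1 circle per gene and list. Filled circles with a name are called. In SJL versus KS the named genes run from Btrc at -1.49 to Fat4 at 1.15, and planar polarity is the list whose named genes are all higher in SJL.

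The genes with the profile most like that of Fzd1, Fzd2 and Dkk3 were taken as those with the smallest root mean square gap over the 9 arrays, after each gene was centred on its own mean. For Fzd1 they were Smarca2 (0.073 on the log2 scale), Galnt1 (0.087) and Ptprm (0.087), where Fzd1 itself deviated from its mean by 0.29. Smarca2 was at 2321 in SJL, 3571 in KS and 2681 in B6. For Fzd2 they were Sh3pxd2b (0.15), Sowahb (0.16) and Gtf2h3 (0.16), beside 0.56 for Fzd2 itself, and Sowahb was at 1565 in SJL, 3153 in KS and 3180 in B6. For Dkk3 they were Ccpg1 (0.048), Rdh13 (0.070) and Emc4 (0.072), beside 0.24 for Dkk3, and Ccpg1 was at 1568, 1281 and 1090 in SJL, KS and B6. They were picked from 10955 other genes as the closest, so the likeness is a description.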

How the data were processed

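The authors deposited probe set intensities on a linear scale for 9 Affymetrix arrays, labelled with biotin per the labels' protocols; background correction, summary and scaling are not given in the sources used here. Intensities ran from 3.39 to 37501, 54.6% lay below 16, and no detection calls were used. The number of arrays, 3 for each strain, limits the precision. Gene names came from the platform annotation. Probe sequences were not compared with the SJL or KS genome, so transcript level and probe match cannot be told apart in a strain difference.

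The value log2(intensity + 10) was fitted with limma 3.58.1 (R 4.3.3), with 1 mean per strain over the 9 arrays. The 22519 of 45037 non-control probe sets at or above the median mean level were tested, and p-values were adjusted over them. Tests were two-sided, and permuting 3 arrays with 3 exactly would give p-values of at least 0.1. A log2 difference on this scale understates changes of dim probe sets. The fit was tested on simulated data. P-values set a strain difference against the spread between the mice of a strain, pooled over the 3 strains and moderated by limma.

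The members and the gene lists were chosen with earlier results of these data known. Named were all 10 genes with every probe set, up to 2 called genes per pathway list and comparison with the largest difference, with further called genes by name, up to 2 of the brightest markers per list, markers over 4-fold apart on 1 array, and 3 genes of like profile per gene called by the F-test. The alternatives were the filter, normalization, pseudocount, variance prior, array weights, a block for the replicate number, fits on only the 6 arrays compared, the mean of all probe sets, and each array left out.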

Additional observations from a re-analysis of the deposited data

How the results depend on the processing

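Fzd1 and Fzd2 in SJL versus KS, and Fzd2 and Dkk3 in SJL versus B6, kept their direction and their call in all 11 other settings and without each array in turn. With the mean of all probe sets, which adds probe sets at the lower end of the scale, Fzd1 gave -0.33 and Fzd2 -0.38 in SJL versus KS, and Fzd2 -0.34 in SJL versus B6. The labels name no pairing or batch for the replicate numbers. Deviations of same-numbered arrays correlated between -0.27 and 0.26, and those of differently numbered arrays between -0.36 and 0.42. Of the 9 arrays, 4 correlated best with their own number. With 3 arrays per strain this cannot decide whether same-numbered arrays share a factor. With the number as a block, 3 members were called in SJL versus KS, 1 in KS versus B6 and 2 in SJL versus B6, with 3315, 1124 and 3509 probe sets called, and 14, 3 and 11 pathway genes. Among the genes named with values, Dkk3 in SJL versus KS gained a call (0.0490) and Porcn in KS versus B6 lost one (0.0614). Array weights, whose estimate stopped before it converged, raised the members called to 5 in any strain, 5 in SJL versus KS, 2 in KS versus B6 and 4 in SJL versus B6, the pathway genes to 32, 5 and 23, and the probe sets to 9450, 2232 and 7364. With no filter, KS versus B6 had 0 members by limma, 1 pathway gene and 838 probe sets called, and SJL versus B6 5 pathway genes. A filter at the 70th percentile gave 8 pathway genes in SJL versus KS, and 2101, 742 and 2156 probe sets in SJL versus KS, KS versus B6 and SJL versus B6. Only the 6 arrays compared gave 0 pathway genes in KS versus B6. The mean of all probe sets gave 4 members in SJL versus KS. Leaving out 1 array gave 2 to 3 members in SJL versus KS, 0 to 1 in KS versus B6 and 2 to 3 in SJL versus B6, with 9 to 14, 0 to 3 and 5 to 10 pathway genes and 2343 to 3662, 748 to 1449 and 2545 to 3694 probe sets. Signs turned for Vangl1, at -0.43 in SJL versus KS with the mean of all probe sets, where it was called lower in SJL. They also turned for Lrp6 in SJL versus B6, which was at -0.48 and not called, and otherwise for smaller differences that were not called. With that mean, Ctnnb1 was at -0.065 in SJL versus KS, 0.21 in KS versus B6 and 0.14 in SJL versus B6, Fzd6 at 0.019 in KS versus B6 and 0.11 in SJL versus B6, Lrp6 at 0.078 in KS versus B6 and 0.014 in SJL versus B6, and Sfrp1 at 0.022 in KS versus B6. Array weights gave 0.0086 for Fzd7 in SJL versus KS and 0.015 for Sfrp1 in KS versus B6, where quantile normalization gave 0.0099. With 1 array left out, Ctnnb1 ran from -0.019 to 0.032, Fzd6 from -0.011 to 0.19 and Fzd7 from -0.24 to 0.095 in SJL versus KS. Fzd2 ran from -0.076 to 0.24, Sfrp1 from -0.050 to 0.039 and its probe set 1416594_at from -0.093 to 0.32 in KS versus B6. Axin2 ran from -0.50 to 0.10 and Fzd6 from -0.18 to 0.0090 in SJL versus B6, with the upper ends both without SJL replicate 2. The cause of these changes was not tested. Probe sets near the lower end of the scale, Wif1 among them, gave no usable level, and 3 mice per strain limit what could be called.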

Other observations

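In several further genes of the pathway, probe sets of 1 gene gave different answers, as found after the values were seen. Some were not called by their brightest probe set in a comparison in which a dimmer one was. Fzd4, a Frizzled known from retinal vessels, was not called by its brightest probe set in SJL versus KS (0.33, adjusted p = 0.364), while a dimmer one was at 115 ± 40.5 in SJL, 50.3 ± 7.62 in KS and 56.9 ± 14.9 in B6 and was called higher in SJL than in KS (1.01, 0.0260) and than in B6 (0.88, 0.0449). A dimmer probe set of Cdh11, a cadherin of mesenchymal cells, was lower in SJL than in KS (-1.01, 0.00839) and than in B6 (-0.70, 0.0417). That of Kremen1, a Dkk receptor, was lower in SJL than in KS (-0.995, 0.0183) and higher in KS than in B6 (1.28, 0.0123). It was dim, at 23.8 in SJL, 59.6 in KS and 18.0 in B6. That of Ctnnbip1 was lower in SJL than in KS (-0.85, 0.0289). For Apc, a dimmer probe set was lower in SJL than in B6 (-0.91, 0.0463). Another dimmer Apc probe set went the other way without a call (0.41, 0.378), and a further one was level (-0.04, 0.954). For Csnk1e the signs differed, with a dimmer probe set called higher in SJL than in B6 (0.97, 0.00255) and in KS than in B6 (0.70, 0.0286). The brightest was at -0.62 (0.0572) and -0.51 (0.181) in the same comparisons. The dimmer Csnk1e probe set was at 32.4 ± 9.25 in SJL, 24.7 ± 1.91 in KS and 11.3 ± 1.52 in B6, near the lower end of the scale. Cd44 was lower in SJL than in B6 by its 2 brightest probe sets (-0.51, 0.0374, and -0.57, 0.0133) and not by the dimmest (0.10, 0.697). Btrc was lower in SJL than in B6 by 2 of its 3 tested probe sets (-1.28, 0.00742, and -1.22, 0.0177). The dimmer of these was not called in SJL versus KS (-0.73, 0.115). The remaining Btrc probe set lay between 8.79 and 9.29 on all arrays, near the lower end of the scale.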
